A study of Mus musculus with 4 samples.

Results

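The genes of the unfolded protein response and the integrated stress response were examined in B16F10 cells, a mouse melanoma line of the C57BL/6 strain, with and without knockdown of Lmna, the gene of lamins A and C. The 35 genes were chosen by symbol from the 24421 symbols of the deposited count table. The rule uses no measured value, but the list was drawn up with earlier results of these data known. The genes were split into the branches named for ATF4 (15 genes), XBP1 (8 genes) and ATF6 (10 genes). A further 2 endoplasmic reticulum (ER) proteins belong to no single branch. The branches follow textbook targets, and XBP1 and ATF6 share many of these. The series holds 4 bulk RNA libraries, 2 of shControl cells and 2 of shLmna cells. Both lines had been transduced with lentivirus, selected with puromycin and kept as stable lines. shControl cells carried the vector that the labels call control shRNA and the study lists as empty, and shLmna cells carried 1 hairpin against Lmna. The comparison asks which transcripts differ between these lines, and the protocols name no added stressor. Each genotype is 1 selected line, so lower lamin A/C, other effects of the hairpin and differences between the lines cannot be told apart. The labels do not tell whether the libraries within a group stand for separate transductions or cultures. The p-values therefore measure the spread between these libraries, which may be technical.

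Proteins that enter the ER fold with the help of chaperones, and when unfolded chains build up, 3 membrane sensors respond. PERK phosphorylates the initiation factor eIF2, which lowers general translation and favours that of ATF4, a transcription factor of amino acid and redox genes; eIF2 is also the point where other stress kinases enter the integrated stress response. IRE1 splices the mRNA of XBP1 into that of an active factor, and ATF6 is cut in the Golgi to free its own active part. XBP1 and ATF6 then raise the genes of ER chaperones and of the machinery that degrades misfolded proteins. The phosphorylation, splicing, cleavage and translation steps are not seen by counts of transcript ends, so the values given here are mRNA levels only.

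Counts per library came to between 2494880 and 3808843. Lmna itself had 2826 and 2684 counts in the shControl libraries against 331 and 480 in the shLmna libraries, or 797 ± 111 against 131 ± 0.0955 counts per 1000000 (CPM, scaled by TMM, mean ± SD, n = 2). It was 6.09-fold lower with an adjusted p of 7.93e-06 (edgeR quasi-likelihood F test, Benjamini-Hochberg over 9150 tested genes). Of the 8 melanocyte lineage markers, 7 had at least 252 counts in each library, and Tyr had between 1 and 7. Among them Sox10 was lower in shLmna cells (log2 fold change -0.89, adjusted p 0.00161), and Mlana (0.51, adjusted p 0.0051) and Pmel (0.41, adjusted p 0.0258) were higher. The part of these shifts in the results was not tested. Ptprc, Cdh5, Krt14, Epcam and Dcn, markers of other cell types, had 0 counts in each library, Pecam1 had at most 4, Col1a1 at most 13 and Cd68 between 27 and 54. The libraries hold RNA of whole cultures, so fewer cells that express a gene and less RNA per cell cannot be told apart.

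Of the 35 genes, 33 had enough counts to be tested. At an adjusted p under 0.05, 4 of the 33 were lower in shLmna cells, against 9.74% of all 9150 tested genes, and 0 were higher, against 5.48% of all tested genes. By edgeR without adjustment, 12 of the 33 had a p under 0.05, where 30.1% of all tested genes did. DESeq2, run without the count filter on 13616 genes, called 3 of the 35 lower and 0 higher, against 4.33% and 1.6% of those genes. These shares include genes with very few counts and are not on the same footing as those over 9150 genes. Without shLmna 1 (Canx and Hspa5) or without shLmna 2 (Canx and Calr) 2 were lower, against 4.51% and 4.35% of all genes in those fits. The 4 genes were Canx (calnexin), Hspa5 (BiP), Calr (calreticulin) and Xbp1, that is, 3 ER chaperones and 1 transcription factor. With the further limits that the study set, a log2 fold change of more than 1 in either direction and a mean normalized count over 5, 2 genes remained lower (Canx and Hspa5; 5.88% of all tested genes) and 0 were higher (1.76% of all tested genes). The 2 groups did not overlap for 22 of the 33 genes, where the share among all tested genes was 60.1%.

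The branches are described by their medians and counts, without a test between them. The median log2 fold change was 0.30 for the 13 tested genes of the ATF4 branch, 0.07 for the 8 of the XBP1 branch and -0.10 for the 10 of the ATF6 branch, beside -0.00107 over all tested genes. In the ATF4 branch 8 genes had positive and 5 negative values, and 0 passed the test. In the XBP1 branch 4 were positive and 4 negative, and Xbp1 passed. In the ATF6 branch 3 were positive and 7 negative, and Hspa5 and Calr passed. The plot of CPM by library shows each of the 35 genes, and the plot of fold changes shows each tested gene with its interval.

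**Figure D1:**
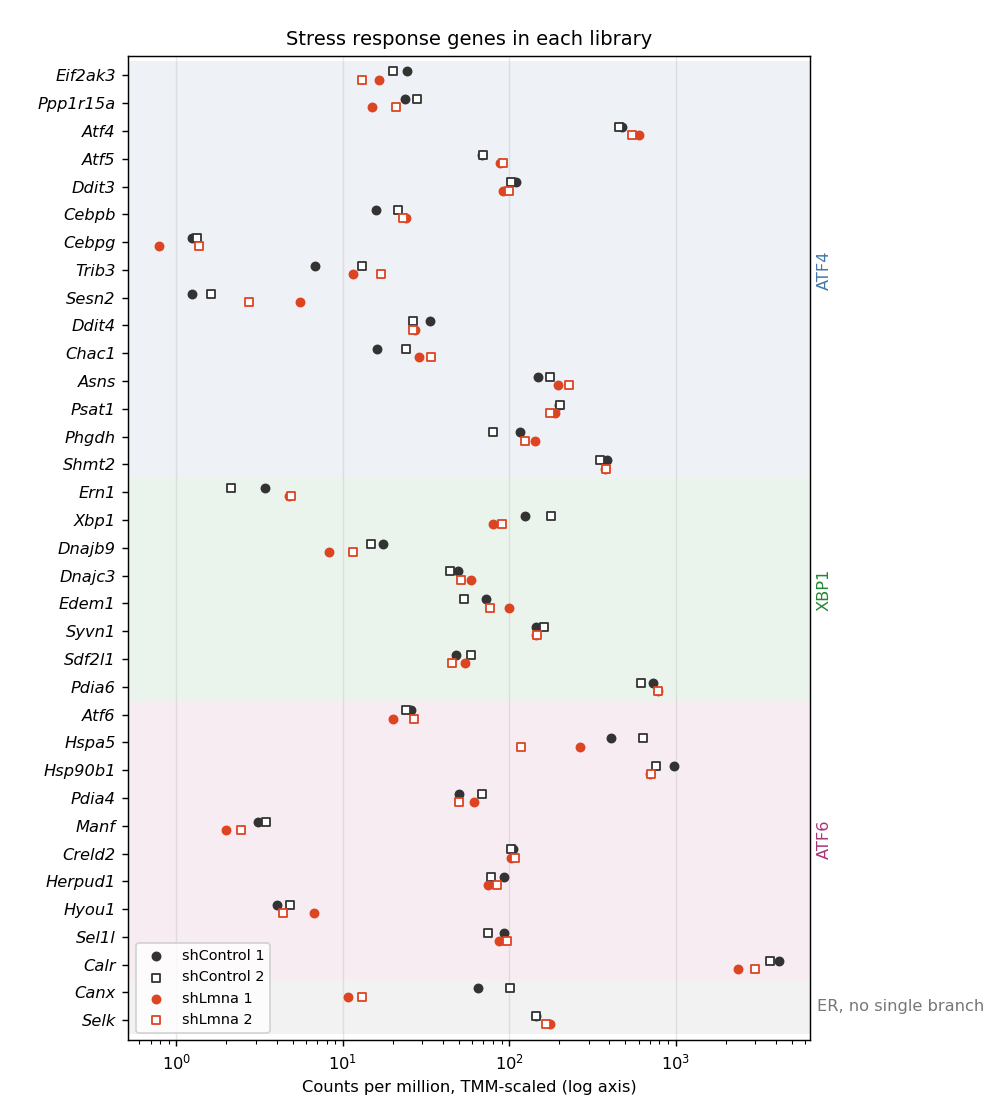
CPM of the 35 genes (log axis) in the shControl libraries (black) and the shLmna libraries (red), with circles for replicate 1 and squares for replicate 2, grouped by branch. The groups lie apart by the widest margin for Canx, whereas most genes of the ATF4 branch lie close together.

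**Figure D2:**
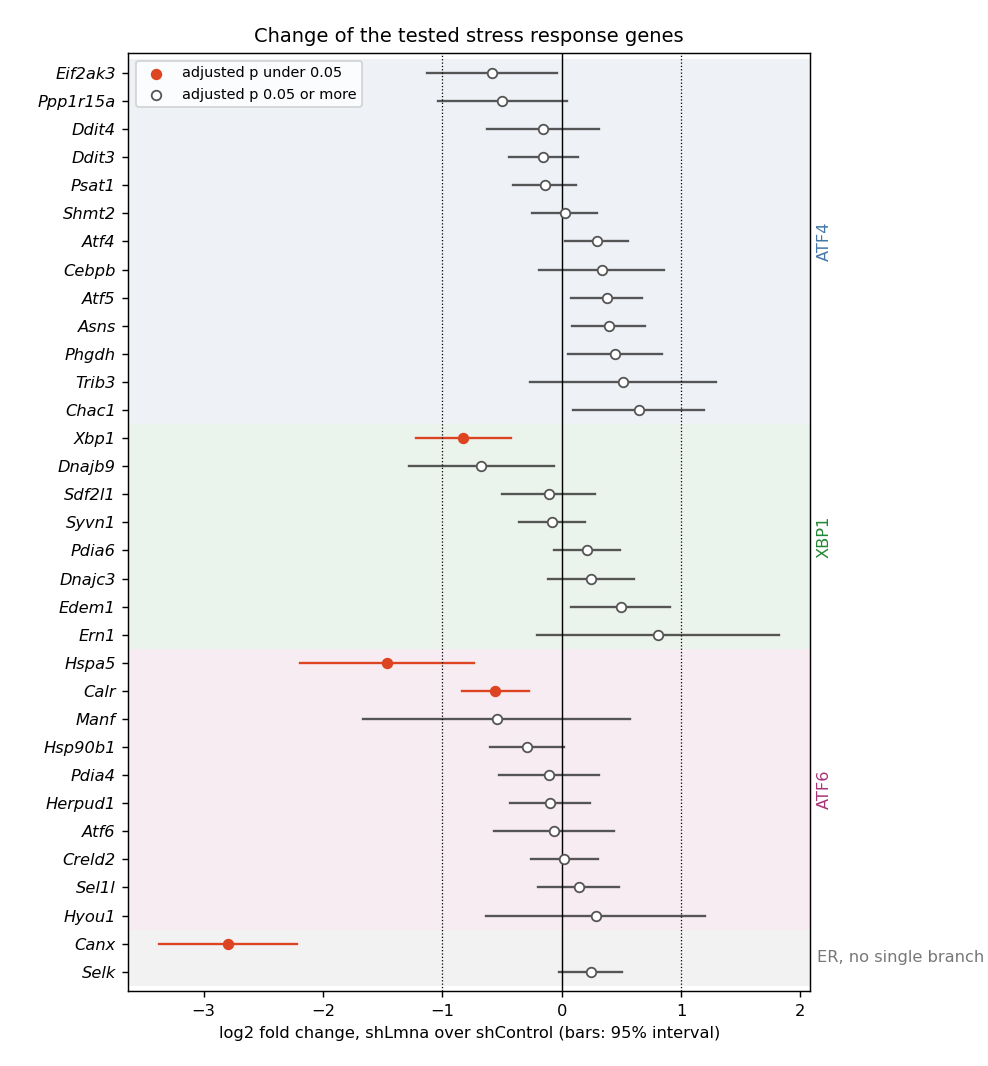
Fitted log2 fold change of the 33 tested genes, shLmna over shControl (n = 2 per group), with 95% intervals, in order of size within each branch. The 4 filled points are Xbp1, Hspa5, Calr and Canx, the genes with an adjusted p under 0.05, and dotted lines mark a log2 fold change of 1 in either direction.

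Both lectin chaperones of the ER were lower in shLmna cells. Canx encodes calnexin, the membrane-bound lectin that retains newly made glycoproteins until they fold (chromosome 11, 50293961 to 50325673, minus strand, GRCm38). It had 64.7 and 102 CPM in the shControl libraries and 10.7 and 13.1 CPM in the shLmna libraries, from 209, 380, 27 and 48 counts. Both shLmna libraries therefore lay far below both controls. The mean fell from 83.2 ± 26.2 to 11.9 ± 1.70 CPM (SD, n = 2), a 6.93-fold lower level, with a log2 fold change of -2.79 (SE 0.258, 95% interval -3.37 to -2.21) and an adjusted p of 0.000104. Leaving out single libraries gave -3.07 to -2.43 with the test passed each time. On the deposited batch-corrected log2 values, the difference was -0.83 with an adjusted p of 0.00298 (limma). No 31-base stretch of its counted end was shared with another gene.

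Calr encodes calreticulin, the soluble counterpart of calnexin, which also stores calcium in the ER lumen (chromosome 8, 84841850 to 84846934, minus strand). Its level was 4194 and 3691 CPM in the shControl libraries and 2369 and 3000 CPM in the shLmna libraries. The groups did not overlap, and the closest pair was shControl 2 and shLmna 2. The mean went from 3943 ± 355 to 2685 ± 447 CPM (SD, n = 2), 1.47-fold lower, with a log2 fold change of -0.55 (SE 0.126, 95% interval -0.84 to -0.27) and an adjusted p of 0.0164. Without shLmna 1 the log2 fold change was smaller in size, at -0.39, and without shLmna 2 it was -0.72. Each of these fits leaves 1 shLmna library. The counts of Calr made up 0.415% and 0.362% of all counts in shControl and 0.240% and 0.301% in shLmna, while the other 34 genes together made up 0.475% and 0.462% against 0.462% and 0.440%. Most of the lower share of the 35 genes in the shLmna libraries was thus in Calr counts.

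Selk, the ER membrane selenoprotein that takes part in the removal of misfolded proteins, did not pass the test. It had 144 and 145 CPM in shControl and 176 and 166 CPM in shLmna. The log2 fold change was 0.24 (95% interval -0.02 to 0.51) with an adjusted p of 0.199.

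Hspa5 encodes BiP, the ER Hsp70 that binds unfolded chains and holds the 3 sensors inactive (chromosome 2, 34771970 to 34777547, plus strand). It had 411 and 641 CPM in the shControl libraries and 267 and 117 CPM in the shLmna libraries. The groups did not overlap, but the shLmna libraries differed from each other by slightly more than the distance between the nearest pair of the groups. The mean went from 526 ± 162 to 192 ± 106 CPM (SD, n = 2), 2.76-fold lower, with a log2 fold change of -1.46 (SE 0.327, 95% interval -2.20 to -0.73) and an adjusted p of 0.0151. Without shLmna 2 the log2 fold change was -0.96 with an adjusted p of 0.102, and without shLmna 1 it was -2.16 with an adjusted p of 0.00171. DESeq2 gave -1.45 with an adjusted p of 0.184, and on the batch-corrected values the difference was -0.87 with an adjusted p of 0.0481.

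Hsp90b1 and the other luminal chaperones had smaller values. Hsp90b1 encodes GRP94, the ER Hsp90, and had 979 and 759 CPM in shControl and 705 and 716 CPM in shLmna. Its groups did not overlap, and its log2 fold change was -0.29 (95% interval -0.60 to 0.02) with an adjusted p of 0.191. Without shControl 1 the log2 fold change was -0.093, and without shControl 2 it was -0.47 with an adjusted p of 0.0149. Its counted end overlaps the annotated gene Gm15344 on the same strand over 63 bases, so some reads may have been shared. Pdia4, a disulfide isomerase, had -0.10 (95% interval -0.53 to 0.32), and Creld2, a secreted ER stress protein, had 0.02 (95% interval -0.26 to 0.30), on the log2 scale. Hyou1, an ER chaperone of the Hsp110 class, had 13, 18, 17 and 16 counts in shControl 1, shControl 2, shLmna 1 and shLmna 2, and Manf, a secreted protein that binds BiP, had 10, 13, 5 and 9. These counts left wide intervals on the log2 scale, from -0.63 to 1.20 for Hyou1 and from -1.66 to 0.57 for Manf. Manf also overlaps Rbm15b on the same strand over 114 bases.

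Atf6 itself, the sensor of this branch, had 25.7 and 23.8 CPM in shControl and 20.2 and 26.7 CPM in shLmna. The groups overlapped, and the log2 fold change was -0.06 (95% interval -0.57 to 0.44; adjusted p 0.882). Herpud1 and Sel1l, both parts of the complex that passes misfolded proteins out of the ER, had log2 fold changes of -0.10 (adjusted p 0.716) and 0.14 (adjusted p 0.579), and their groups overlapped as well. Within the ATF6 branch the lower values that passed the test were thus those of Hspa5 and Calr, with adjusted p from 0.191 to 0.934 for the other 8 genes.

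Several of these genes carry the ER stress response element (ERSE), to which ATF6 and XBP1 bind together with the factor NF-Y. The sites are shown because it occurs in Canx, Hspa5 and Calr, which were lower, and also in genes that did not pass. Xbp1, which was lower too, had no exact match in its promoter entry. The element was searched in RefSeq promoters of build GRCm38.p6, from 250 bases before to 50 bases after each start, on both strands, as CCAAT, any 9 bases and CCACG. Of the 35 genes, 32 had a promoter entry, Selk under its newer symbol Selenok, and Atf6, Manf and Hyou1 had none. The element was in 39 of 32851 promoters (0.119%) and in those of 8 of the 32 genes. Capitals mark the 19 bases of the element, read from CCAAT to CCACG, and lower case the 10 bases on each side.
Canx: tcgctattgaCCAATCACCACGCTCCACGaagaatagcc
Hspa5: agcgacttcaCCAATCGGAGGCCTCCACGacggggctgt
Calr: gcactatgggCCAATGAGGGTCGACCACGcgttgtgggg
Hsp90b1, distal site: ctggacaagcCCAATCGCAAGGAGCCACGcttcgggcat
Hsp90b1, proximal site: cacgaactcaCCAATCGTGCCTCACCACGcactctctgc
Syvn1: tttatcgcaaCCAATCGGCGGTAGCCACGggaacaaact
Creld2: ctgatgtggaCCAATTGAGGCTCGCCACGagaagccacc
Pdia6: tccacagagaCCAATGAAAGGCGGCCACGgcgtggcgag
Dnajc3: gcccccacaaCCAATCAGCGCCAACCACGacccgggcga

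In each of the 9 sites CCAAT was followed by a different 9-base spacer. Counted from the transcription start, the Canx element lay at -145 to -127, that of Hspa5 at -65 to -47 and that of Calr at -162 to -144 on the other strand. Hsp90b1 held one element on each strand, at -212 to -194 and at -107 to -89. The 250 bases before the start of the 3 chaperone genes that were lower in shLmna cells lie at chr2:34771840-34772089 (plus strand), chr8:84846932-84847181 (minus strand) and chr11:50325674-50325923 (minus strand) and read, along each gene, with the element in capitals:
Hspa5: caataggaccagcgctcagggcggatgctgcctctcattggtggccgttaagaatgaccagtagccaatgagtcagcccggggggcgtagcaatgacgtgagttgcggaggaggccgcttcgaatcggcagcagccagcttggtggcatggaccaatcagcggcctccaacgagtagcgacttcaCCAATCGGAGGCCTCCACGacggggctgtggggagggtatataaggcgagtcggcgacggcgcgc
Calr: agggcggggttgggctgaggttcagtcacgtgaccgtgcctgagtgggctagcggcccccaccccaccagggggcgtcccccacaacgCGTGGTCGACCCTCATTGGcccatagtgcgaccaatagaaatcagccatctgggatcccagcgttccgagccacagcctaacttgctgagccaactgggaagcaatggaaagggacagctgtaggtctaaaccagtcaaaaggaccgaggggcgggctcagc
Canx: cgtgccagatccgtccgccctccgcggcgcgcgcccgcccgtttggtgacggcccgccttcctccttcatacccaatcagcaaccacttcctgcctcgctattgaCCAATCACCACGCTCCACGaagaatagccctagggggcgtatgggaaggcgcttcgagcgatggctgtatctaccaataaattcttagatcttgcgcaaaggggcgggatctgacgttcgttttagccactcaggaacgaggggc

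The capitals in the Calr promoter are the reverse complement of the element, since its site faces the other way. An exact match is a description of these letters and not evidence of binding. Near matches to the element were not searched. The Hspa5 window holds such a form in lower case, ccaatcagcggcctccaac, so the search does not show that other promoters lack related sites.

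Of the 8 genes with the element, Canx, Hspa5 and Calr were lower in shLmna cells, and Hsp90b1, Syvn1, Creld2, Pdia6 and Dnajc3 did not pass the test, with log2 fold changes from -0.29 to 0.25. The median over the 8 was -0.19. Of the 22 tested genes with a promoter entry and no exact match in it, 1 was lower (Xbp1), with a median of 0.08. These 22 include Herpud1, whose promoter holds the shorter element ERSE-II. Of all tested genes, 9.74% were lower. Of the 6 other tested genes of the series with the element, 1 was lower (Xlr3c, -0.91, adjusted p 0.031), with a median of -0.02. The plot of element positions sets these side by side.

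**Figure D3:**
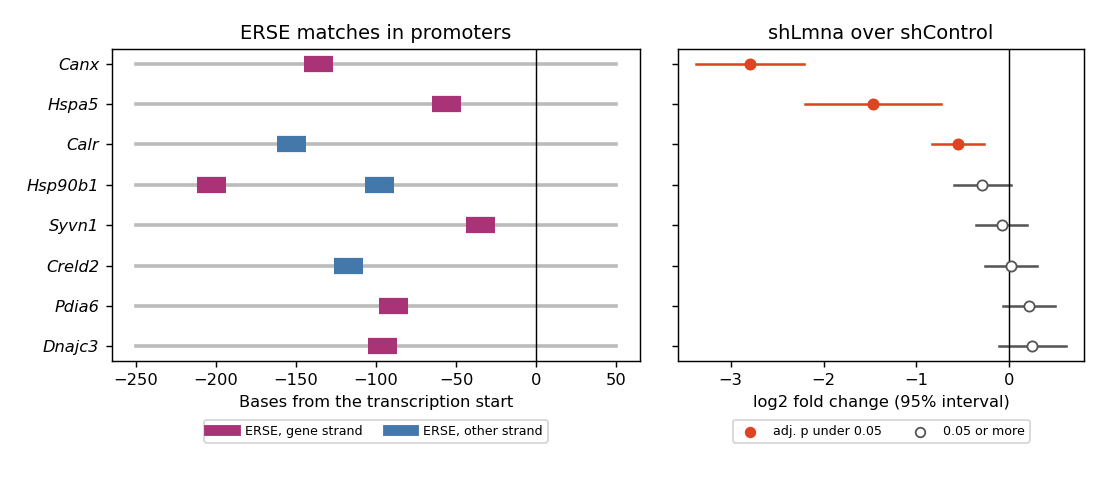
Left, position of each ERSE in the promoter, in bases from the transcription start, on the strand of the gene (purple) or the other strand (blue). Right, log2 fold change of the same gene with its 95% interval, filled red at an adjusted p under 0.05. The elements of the 3 upper genes, Canx, Hspa5 and Calr, lie within the outer range of those of the other 5. They overlap none of the elements of these 5 genes.

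The other motifs, searched as exact letters, were rarer among these genes. The shorter element ERSE-II (ATTGGNCCACG, added after the data had been seen) was in 0.0365% of all promoters and, among these genes, in that of Herpud1. The cAMP response element TGACGTCA was in 1.79% of all promoters and in that of Ppp1r15a. The ATF6 and XBP1 site TGACGTGG (0.676% of all promoters) was found in these windows for none of the 32 genes. The same held for TGATGNAAT (0.965%), the exact letters used for the composite site of ATF4 and C/EBP factors. Forms with another last base were not searched. The Asns window holds such a form, tgatgaaac, so the search does not show that these promoters lack the composite site.

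In the XBP1 branch, Xbp1 itself was the gene that passed the test. Xbp1 (chromosome 11, 5520659 to 5525893, plus strand) had 125 and 179 CPM in the shControl libraries and 80.3 and 91.0 CPM in the shLmna libraries, without overlap. The mean went from 152 ± 38.4 to 85.6 ± 7.57 CPM (SD, n = 2), 1.77-fold lower, with a log2 fold change of -0.82 (SE 0.178, 95% interval -1.22 to -0.43) and an adjusted p of 0.0129. Leaving out shControl 2 gave -0.54 with an adjusted p of 0.0185. The call was lost without shLmna 1 (-0.73, adjusted p 0.117) and without shLmna 2 (-0.90, adjusted p 0.0955), and on the batch-corrected values the difference was -0.38 with an adjusted p of 0.00806. The counts cover the transcript end and do not separate the spliced from the unspliced form.

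Ern1 encodes IRE1, the kinase and nuclease that splices Xbp1, and had 11 and 8 counts in shControl against 12 and 18 in shLmna. The log2 fold change was 0.81 with an interval from -0.20 to 1.82 (adjusted p 0.267), so a change was not detectable at this depth. Dnajb9 (ERdj4), a cochaperone of BiP, had 17.3 and 14.7 CPM in shControl and 8.31 and 11.4 CPM in shLmna, with a log2 fold change of -0.67 (95% interval -1.28 to -0.06; adjusted p 0.131). Edem1, which draws misfolded glycoproteins towards degradation, had 72.2 and 53.3 CPM in shControl and 100 and 77.1 CPM in shLmna. Its log2 fold change was 0.49 (95% interval 0.08 to 0.91; adjusted p 0.108). Groups did not overlap for either gene. Without shControl 2 the log2 fold change of Edem1 was 0.28, and without shControl 1 it was 0.72 and passed (adjusted p 0.0022).

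The remaining 4 genes of the XBP1 branch had smaller values and did not pass the test. They were Dnajc3 (P58IPK, an ER cochaperone; 0.25), Pdia6 (a disulfide isomerase; 0.21), Syvn1 (HRD1, the ubiquitin ligase of ER-associated degradation; -0.08) and Sdf2l1 (a partner of ER cochaperones; -0.11), as log2 fold changes with adjusted p from 0.284 to 0.726. Pdia6 had 732 and 616 CPM in shControl and 785 and 779 CPM in shLmna, without overlap. The groups of Dnajc3 did not overlap either, whereas those of Syvn1 and of Sdf2l1 did.

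In the ATF4 branch, none of the 13 tested genes passed the test, and 6 had an unadjusted p under 0.05, a limit that 30.1% of all tested genes met. Eif2ak3 encodes PERK, the sensor of this branch, and had 24.2 and 20.1 CPM in shControl and 16.6 and 13.1 CPM in shLmna. Its log2 fold change was -0.59 (95% interval -1.13 to -0.04; adjusted p 0.139), without overlap between groups. Ppp1r15a (GADD34), the phosphatase subunit that reverses eIF2 phosphorylation, had 23.5 and 27.8 CPM in shControl and 15.03 and 20.98 CPM in shLmna, with a log2 fold change of -0.50 (95% interval -1.04 to 0.04; adjusted p 0.201). The sensor and the phosphatase subunit thus both had values below 0 that did not pass.

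The transcription factors of the branch had values in both directions. Atf4 (chromosome 15, 80255184 to 80257541, plus strand) had 479 and 458 CPM in shControl and 600 and 550 CPM in shLmna. Both shLmna libraries were above both controls, with a log2 fold change of 0.30 (SE 0.119, 95% interval 0.03 to 0.56) and an adjusted p of 0.128. Atf5, a target and relative of ATF4, had 69.1 and 69.6 CPM in shControl and 87.8 and 92.4 CPM in shLmna, with a log2 fold change of 0.38 (95% interval 0.08 to 0.68; adjusted p 0.0878). Ddit3 (CHOP), the factor tied to cell death under prolonged stress, had 111 and 103 CPM in shControl and 91.8 and 99.7 CPM in shLmna. Its log2 fold change was -0.15 (95% interval -0.44 to 0.14; adjusted p 0.471), and part of its counted end lies on bases shared with a second entry of the same name and opposite Mars. Cebpb had a log2 fold change of 0.34 (adjusted p 0.373), and Cebpg, its partner, had 4, 5, 2 and 5 counts and was not tested.

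The amino acid genes of the branch also had values on both sides of 0. Asns, which makes asparagine and is a standard reporter of ATF4, had 149 and 175 CPM in shControl and 197 and 229 CPM in shLmna. The groups did not overlap, and the log2 fold change was 0.39 (SE 0.136, 95% interval 0.09 to 0.70) with an adjusted p of 0.0839. Of the serine pathway, Phgdh, the first enzyme, had 116 and 80.3 CPM in shControl and 143 and 124 CPM in shLmna, with a log2 fold change of 0.44 (95% interval 0.05 to 0.84; adjusted p 0.122). The Phgdh value is uncertain, because 71.9% of the 31-base stretches of its counted end recur in pseudogenes. Psat1, the next enzyme, had a log2 fold change of -0.14 (adjusted p 0.470), and Shmt2, the mitochondrial enzyme that turns serine into glycine, had 0.03 (95% interval -0.24 to 0.30; adjusted p 0.914). Without shControl 2 the log2 fold change of Phgdh was 0.20 and without shControl 1 it was 0.73 (adjusted p 0.000518), and without shControl 2 Asns passed as higher (0.51, adjusted p 0.0216).

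Of the regulators that ATF4 and CHOP induce, Chac1, which breaks down glutathione, had 16.1 and 24.1 CPM in shControl and 28.9 and 34.1 CPM in shLmna. Its log2 fold change was 0.64 (95% interval 0.10 to 1.19; adjusted p 0.108), without overlap between groups. Without shControl 1 the Chac1 value was 0.40, and without shControl 2 it was 0.97 and passed (adjusted p 0.0148). Trib3, a pseudokinase that restrains AKT and ATF4 itself, went from 22 and 49 counts in the controls to 29 and 62 after knockdown, and its groups overlapped (log2 fold change 0.51, adjusted p 0.360; 0.14 without shControl 1 and 1.08 without shControl 2). Ddit4 (REDD1), an inhibitor of mTORC1, had a log2 fold change of -0.16 (adjusted p 0.665). Sesn2, another inhibitor of mTORC1, did not reach the count filter, with 4, 6, 14 and 10 counts in shControl 1, shControl 2, shLmna 1 and shLmna 2. Without the filter its log2 fold change was 1.46 with an adjusted p of 0.120.

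Whether genes of the ATF4 branch, and Edem1, were called higher depended on the setting. Without the filter on low counts, Chac1, Asns, Phgdh and Edem1 passed as higher, when 5.51% of all genes did, and in that fit the test had infinite degrees of freedom in place of 9.76. With an offset for GC content, Atf5 passed (log2 fold change 0.47, adjusted p 0.0422). On the batch-corrected values, 9 of the genes passed as higher and 7 as lower, where 17.2% and 19.1% of all genes did. Atf4 was among the 9, with a difference of 0.18 and an adjusted p of 0.0117 by limma. The differences in those values were smaller than the fitted fold changes for each of the 4 genes that passed in both.

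Base composition moved with the comparison across all genes. Of the tested genes whose last 1000 transcript bases held under 36% GC, 38% were lower in shLmna cells, against 16.9% at 36 to 40%, 6.61% at 40 to 44% and 4.31% at 44 to 48%. The share was 5.15% at 48 to 52%, 6.53% at 52 to 56% and 8.85% over 56%. Canx had 37.4% GC, Hspa5 40.8%, Xbp1 45.1% and Calr 47.8%, and Dnajb9, the sole tested stress response gene under 36%, had a log2 fold change of -0.67 where the median of that class was -0.54. With an offset for GC content, the log2 fold changes were -2.77 for Canx, -1.53 for Hspa5, -0.89 for Xbp1 and -0.60 for Calr, each past the test. That of Dnajb9 was -0.31 with an adjusted p of 0.509. The part that base composition had in the result was otherwise not tested. Because reads were counted over the last 1000 bases of a gene, a lower level and a shift of the transcript end out of this window cannot be told apart.

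**Figure D4:**
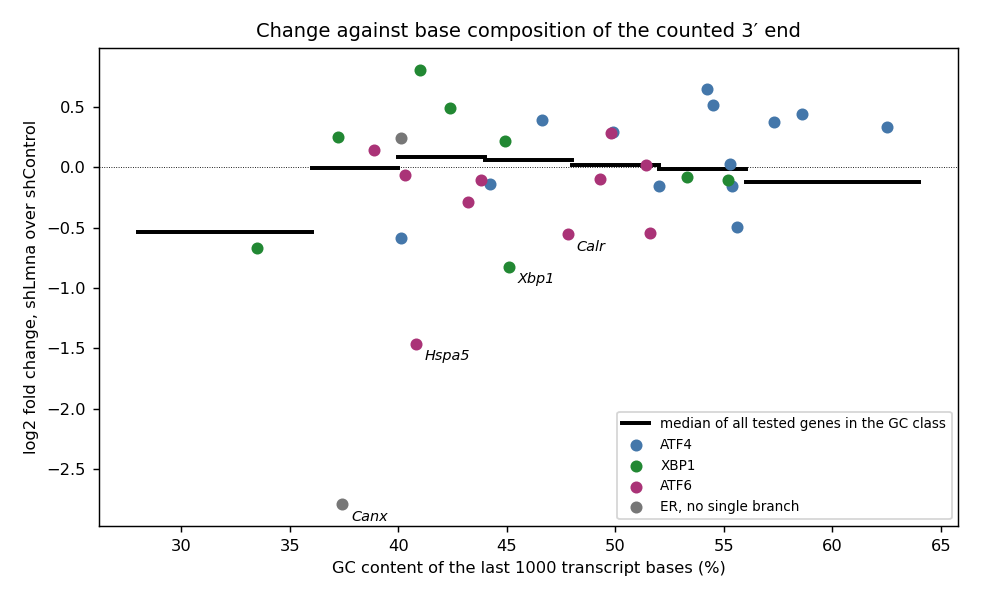
Log2 fold change of the 33 tested genes against the GC content of the last 1000 transcript bases (%), coloured by branch, with black bars for the median of all tested genes in each GC class (the outer bars stand for all genes under 36% and over 56%). Canx, Hspa5, Xbp1 and Calr lie below the median of their class.

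The 4 genes were next set beside the rest of the pathway, in 5 lists with 118 further genes, of which 100 were tested. Of these 100, 10 were lower (9.74% of all tested genes were) and 9 higher (5.48%), with a median log2 fold change of 0.06. The counts lower and higher were 6 and 3 by DESeq2 (4.33% and 1.6% of all genes), 4 and 1 without shLmna 1 (4.51% and 1.23%), and 5 and 1 without shLmna 2 (4.35% and 0.935%). Among 11 tested genes of the eIF2 kinases, eIF2 and its exchange factor eIF2B, Eif2ak1 (HRI, the kinase of heme and mitochondrial stress) was lower (log2 fold change -0.66, adjusted p 0.0132), Eif2b2 was lower (-0.54, adjusted p 0.0412) and Eif2s2, the beta subunit of eIF2, was higher (1.402, adjusted p 0.0492). The control counts of Eif2s2 differed widely, with 14 and 56 in shControl against 73 and 87 in shLmna. None of the 3 genes passed by DESeq2 (adjusted p 0.0863 for Eif2ak1, 0.0872 for Eif2b2 and 0.0979 for Eif2s2), without shLmna 1 (0.0783, 0.315 and 0.207) or without shLmna 2 (0.148, 0.0792 and 0.168), and Eif2s2 did not pass with the GC offset (adjusted p 0.0632).

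Among 23 tested further targets of ATF4 and CHOP, 0 were lower (9.74% of all tested genes were) and 2 were higher (5.48%). Both encode amino acid transporters, of which the list held others that did not pass or were not tested. Slc1a4, a carrier of neutral amino acids, went from 41 and 47 counts in the controls to 65 and 86 after knockdown, with a log2 fold change of 0.95 (95% interval 0.45 to 1.46; adjusted p 0.0200). Slc7a11, the cystine carrier, went from 0 and 5 counts in the controls to 15 and 17 after knockdown, with a log2 fold change of 2.81 (95% interval 1.10 to 4.51; adjusted p 0.0348). The groups did not overlap for either gene, but the counts of Slc7a11 were low. Neither gene passed by DESeq2 (adjusted p 0.189 for Slc1a4 and 0.171 for Slc7a11), without shLmna 1 (0.111 and 0.215) or without shLmna 2 (0.0819 and 0.199), and Slc7a11 did not pass without shControl 1 (1.93, adjusted p 0.0525).

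Among 31 tested ER folding enzymes and genes of the translocon and of glycosylation, 3 were lower (9.74% of all tested genes were) and 2 higher (5.48%). Sec63, the translocon partner of BiP, went from 51 and 40 counts in the controls to 0 and 4 counts after knockdown, with a log2 fold change of -4.29 (adjusted p 0.0016). Hspa13, another ER-associated Hsp70, went from 24 and 56 counts in the controls to 1 and 2 after knockdown, a ratio of 23.7 (95% counting interval 7.84 to 118). Its counted end held 34% GC, in the class under 36% where 38% of all tested genes were lower. With the GC offset its log2 fold change went from -4.45 to -4.12, still past the test. Ostc, a subunit of oligosaccharyltransferase, was lower with a log2 fold change of -0.67 (adjusted p 0.00532). Stt3a, the catalytic subunit of the same enzyme, went the other way, from 121 and 145 counts to 255 and 412 (log2 fold change 1.48, adjusted p 0.00014), as did Spcs1 of the signal peptidase (0.77, adjusted p 0.00574). The genes of oligosaccharyltransferase that passed thus did so in both directions. Ostc and Spcs1 did not pass without shLmna 1 (adjusted p 0.0762 and 0.0578) or without shLmna 2 (0.0588 and 0.0540).

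Among 21 tested genes of ER-associated degradation, 3 were lower (9.74% of all tested genes were) and 3 higher (5.48%). Derl2, a derlin that helps to move misfolded proteins out of the ER, had 34 and 49 counts in the controls against 0 after knockdown in each library, which is at least 11.8-fold lower at a floor of 3 counts per library. Edem3, a mannosidase, went from 38 and 57 counts in the controls to 2 and 0 after knockdown, a ratio of 42.3 (95% counting interval 11.4 to 354). Its counted end held 29.5% GC, in the same low class as that of Hspa13. With the GC offset its log2 fold change went from -5.22 to -4.44, still past the test. Herpud2, a relative of Herpud1, was lower with a log2 fold change of -1.31 (adjusted p 0.0126). Erlec1, an ER lectin, was higher (2 and 9 counts against 16 and 28; log2 fold change 2.14, adjusted p 0.0262), and so were the ubiquitin-conjugating enzymes Ube2g2 (0.69, adjusted p 0.0326) and Ube2j1 (0.51, adjusted p 0.0446). The 3 genes higher and Herpud2 lost their calls without shLmna 1 (adjusted p 0.122 for Erlec1, 0.225 for Ube2g2, 0.221 for Ube2j1 and 0.0894 for Herpud2), and the 3 genes higher also without shLmna 2 (0.244, 0.106 and 0.182). By DESeq2, Herpud2, Erlec1 and Ube2j1 did not pass (0.0751, 0.188 and 0.184). Without shControl 1 Erlec1 did not pass (1.54, adjusted p 0.0527), and without shControl 2 Ube2g2 (0.43, adjusted p 0.0704) and Ube2j1 (0.36, adjusted p 0.157) did not. Ube2j1 also did not pass with the GC offset (adjusted p 0.0770).

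Among 14 tested genes of sensor processing and partners, 2 were lower (9.74% of all tested genes were) and 1 higher (5.48%). Creb3, an ER-bound factor related to ATF6, was higher (log2 fold change 0.71, adjusted p 0.0113). Creb3l2, of the same family, was lower (-0.91, adjusted p 0.0261), as was Tmbim6, an ER membrane protein that dampens IRE1 (-0.50, adjusted p 0.0273). None of the 3 passed without shLmna 1 (adjusted p 0.0933 for Creb3, 0.139 for Creb3l2 and 0.233 for Tmbim6) or without shLmna 2 (0.0870, 0.116 and 0.158). Without shControl 2, Creb3l2 and Tmbim6 did not pass (0.0533 and 0.0589), and by DESeq2, Creb3 and Creb3l2 did not (0.0671 and 0.253). Mbtps2, a protease that cuts ATF6 in the Golgi, had 1 and 38 counts in the controls against 0 after knockdown in each library, and was not tested. Its counted end shares 82.3% of its 31-base stretches with Yy2, which it overlaps on the same strand over 828 bases. These counts can therefore not be assigned to Mbtps2 alone.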

How the data were processed

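The 4 libraries were made by bulk MARS-seq, a 3′ method with molecular identifiers. Per the submitters' notes and the study's methods, the authors trimmed reads with Cutadapt, aligned them to mm10 with STAR 2.4.2a and counted them with HTSeq over the last 1000 bases of RefSeq genes and 100 bases downstream. The deposited gene table holds whole-number counts, and whether before or after removal of duplicate identifiers is not given in the sources used here. A deposited table of normalized signal holds 4 columns of values divided by size factors, and its fold changes and p-values from the authors' own DESeq2 comparison were not used. A further deposited table holds log2 values after batch correction by ComBat, whose batches are not named in the sources used here.

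Counts were tested with edgeR 4.0.16 in R 4.3.3 (glmQLFit and glmQLFTest, two-sided) after filterByExpr and TMM scaling, with group as the only term and all 4 libraries. Values were adjusted by Benjamini-Hochberg over 9150 genes, with a threshold of 0.05 (the study tested with DESeq2). The common biological coefficient of variation was 0.126. Standard errors are the fold change divided by the root of F. The test was checked on simulated data. Alternatives used other scalings, no filter, DESeq2 1.42.0, limma 3.58.1 on the batch-corrected log2 values and on log2 of the signal plus a pseudocount of 1, an offset for GC content, a replicate block and the removal of each library. Reads count as molecules only as far as duplicates were removed, and counting intervals and floors cover counting error only. GC content and shared 31-base stretches came from GENCODE M21 transcripts on GRCm38, the same assembly as mm10, with 24017 symbols matched. Strand use in counting is not given in the sources used here, so reads of genes that overlap on opposite strands (among them Hspa5 with Rabepk over 92 bases) may be shared.

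The genes, branches and lists were chosen with earlier results of these data known, and the branches rest on textbook knowledge. The text names all 35 genes, Lmna and, of the other lists, genes with an adjusted p under 0.05, at most 4 for each list and direction. Xlr3c, Mbtps2 and the shares of counts were added after their values were seen. The 2 replicates of a group differed by more than sampling noise (chi-square per degree of freedom 6.96 for shControl and 3.91 for shLmna).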

Additional observations from a re-analysis of the deposited data

How the results depend on the processing

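Canx, Xbp1 and Calr stayed lower and past the test under all 10 settings that used the 4 libraries, and Hspa5 under 9 (all but DESeq2). Of the 35 genes, 4 were lower under RLE, upper quartile and total scaling, 3 under DESeq2, 7 on batch-corrected values and 2 to 5 with 1 library left out, where the share of all genes was 9.13% to 9.75%, 4.33%, 19.1% and 4.35% to 13.8%. The number called higher was 4 without the filter, 9 on batch-corrected values, 1 with the GC offset and 0 to 2 with 1 library left out (Edem1 and Phgdh without shControl 1, Asns and Chac1 without shControl 2), where it was 5.51%, 17.2%, 5.67% and 0.935% to 8.04% of all genes. With the replicate block, 4 were lower and 4 higher (Chac1, Asns, Phgdh and Edem1), where 13.3% and 9.31% of all genes were. With the replicate block and GC offset, 5 were lower and 4 higher, where 12.8% and 9.61% of all genes were. The deviations of same-numbered libraries correlated at 0.0129, so the numbers were not taken to pair them. The higher calls came in part with fits whose test had more degrees of freedom (159.6 with the block against 9.76); the cause was not tested. For the other pathway genes, 6 were lower and 3 higher by DESeq2, 23 were higher on batch-corrected values and 14 with the replicate block, and with 1 library left out 4 to 14 were lower and 1 to 11 higher.

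The median log2 fold change of all 33 genes was -0.065, and was -0.036 with upper quartile scaling, -0.034 with library totals, 0.00376 on batch-corrected values, -0.00430 on log2 signal and -0.00144 to 0.045 with 1 library left out. For the ATF4 branch it was 0.33 with upper quartile scaling, library totals and log2 signal, 0.10 on batch-corrected values, 0.28 with the GC offset and with the block and offset, and 0.14 to 0.28 with 1 library left out. For the ATF6 branch it was -0.23 to -0.048 with 1 library left out. With 1 library left out, the sign of 9 genes that had not passed turned, at adjusted p from 0.729 to 0.99, with log2 ranges of -0.32 to 0.020 for Ddit4, -0.048 to 0.10 for Shmt2, -0.25 to 0.051 for Sdf2l1, -0.28 to 0.11 for Atf6, -0.30 to 0.13 for Pdia4, -0.0078 to 0.064 for Creld2, -0.23 to 0.049 for Herpud1, -0.019 to 0.61 for Hyou1 and -0.018 to 0.32 for Sel1l. Lmna kept its call under each setting. A count test on reads recovered from the signal table was not run. With 2 libraries per group, genes with few counts (Ern1, Manf, Hyou1, Cebpg and Sesn2) have intervals too wide to place them.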
